A study of Drosophila melanogaster with 23 samples.

Results

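*Ir76a* encodes an ionotropic receptor, a chemosensory membrane protein related to the ionotropic glutamate receptors. In the adult antenna of *Drosophila*, neurons of coeloconic sensilla use Ir76a together with the co-receptors Ir25a and Ir76b to detect amines such as phenylethylamine. *Myb* encodes a DNA-binding protein that acts with the MuvB proteins at promoters, both in activation and in repression, and is needed for normal cell division.

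3 transcript models of *Ir76a* are described: FBtr0074876 (CG8533-RB), FBtr0074878 (CG8533-RC) and FBtr0114601 (CG8533-RD), called RB, RC and RD below. They are 3 of 21051 transcripts on the array, and were chosen by name among the transcripts that had risen most in the *Myb* mutant in earlier work on the same arrays. The values that chose them are therefore their mutant and control signals, which are given as a description without a test. The study assigns 1 other transcript to *Ir76a*, FBtr0112451 (CG34257-RA), which is set beside them.

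RNA came from wing imaginal discs, the larval epithelial sacs that form the adult wing and thorax, of male larvae of the last (3rd) instar grown at 25°C. The mutant larvae carried the MH107 allele of *Myb*, induced by P-element mobilization and lethal at the early pupal stage, and the control larvae were of the yellow white stock yw67. Each genotype had 3 biological replicates of 4 arrays each, except control replicate 3 with 3 arrays, which gave 12 *Myb* mutant and 11 yw control arrays with 1 summarized signal per transcript and array. The paper describes MH107 as a null allele that removes part of *Myb* and also a non-essential gene, *alkB*. It states that a *Myb* cDNA rescues the observed mutant phenotypes. It also states that the allele was outcrossed over generations into the control line, to limit differences in genetic background. No other *Myb* allele and no rescued line was among the samples. The loss of *Myb*, the loss of *alkB* and the stock that carries the allele therefore cannot be told apart in these arrays.

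Over the 16637 tested transcripts, the median signal of an array lay between 996 and 1060 and the median log2 change was -0.01. The *Myb* transcript FBtr0074169 (Myb-RA) had signals of 4586, 4929 and 4717 in the mutant replicates, against 15216, 15119 and 16233 in the control replicates, which is -1.71 on the log2 scale (SE 0.06, adjusted p = 3.54e-05 by limma, or 0.00171 with the replicate number as a block). Marker transcripts could be named only where the part of the study's list at hand identifies them. That list was ranked by a test on these same arrays. The identified markers are therefore no random sample, and the signals of the others are not known here. Of 18 wing disc marker genes listed, 1 was identified, the transcription factor gene *eyg*, at 7977 in mutant and 9486 in control discs. A transcript was called where limma's adjusted p was under 0.001 and at least 1 biological replicate had a signal of at least 500. 7 of 8 blood cell markers were identified, and 6 of them were called lower, all but *He*, or 4 of them (*Hml*, *Sr-CI*, *PPO1* and *PPO2*) with the replicate number as a block, where 0.619% and 0.108% of all tested transcripts were called lower. The blood cell markers summed to 2380 to 2719 in mutant replicates and to 37650 to 48391 in control replicates, none was at 0, and their part in the *Ir76a* results was not tested. In whole discs, fewer cells of a type and less RNA per cell cannot be told apart.

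All 3 CG8533 models were bright in mutant discs and dim in control discs. Their geometric mean signals were 28.2 times (RB), 33.5 times (RC) and 25.1 times (RD) the control signals. In each model, every mutant array lay above every control array. RC had the highest signal of the models in both genotypes and RD the lowest. Signal depends on the probes as well as on the RNA, so this order is one of brightness and does not rank the amounts of the transcripts.

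RB spans both other models, since it shares its start with RD and its end with RC in the study's annotation. Its signals were 3047, 3237 and 3339 in mutant replicates 1, 2 and 3, against 114.9, 111.4 and 115.2 in control replicates 1, 2 and 3. Mutant replicate 3 was the brightest, the controls lay within 4 signal units of each other, and no mutant value overlapped the controls. On the log2 scale RB averaged 11.65 ± 0.07 in the mutant and 6.83 ± 0.03 in the control (SD, n = 3 each), a change of 4.82 (SE 0.06). Single arrays ranged over 2786 to 3653 in the mutant and 98.8 to 130.3 in the control. The dimmest mutant array was thus 21.4 times as bright as the brightest control array.

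RC lies within RB and shares its end. Its signals were 5016, 5105 and 5603 in mutant replicates 1, 2 and 3, against 166.8, 130.5 and 175.5 in control replicates 1, 2 and 3. Mutant replicate 3 was again the brightest, and control replicate 2 stood below the other controls on each of its arrays. RC averaged 12.35 ± 0.09 in the mutant and 7.29 ± 0.23 in the control on the log2 scale (SD, n = 3 each), a change of 5.07 (SE 0.12). Single arrays ranged over 4584 to 6015 in the mutant and 125.9 to 198.2 in the control, and the dimmest mutant array was 23.1 times as bright as the brightest control array. Without control replicate 2 the change of RC was 4.94.

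RD also lies within RB and shares its start. Its signals were 1061, 1049 and 1119 in mutant replicates 1, 2 and 3, against 41.8, 45.5 and 41.4 in control replicates 1, 2 and 3. Mutant replicate 3 was the brightest, as in the other models, but control replicate 2, the dimmest control in RC, was the brightest control in RD. RD averaged 10.07 ± 0.05 in the mutant and 5.42 ± 0.08 in the control on the log2 scale (SD, n = 3 each), a change of 4.65 (SE 0.07). Single arrays ranged over 951 to 1163 in the mutant and 38.5 to 47.7 in the control, and the dimmest mutant array was 19.9 times as bright as the brightest control array.

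The plot of signals by array shows these values together with those of CG34257-RA. The step between genotypes was far wider than the scatter of arrays within a replicate or of replicates within a genotype in the CG8533 models, while in CG34257-RA the step was narrow.

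**Figure D1:**
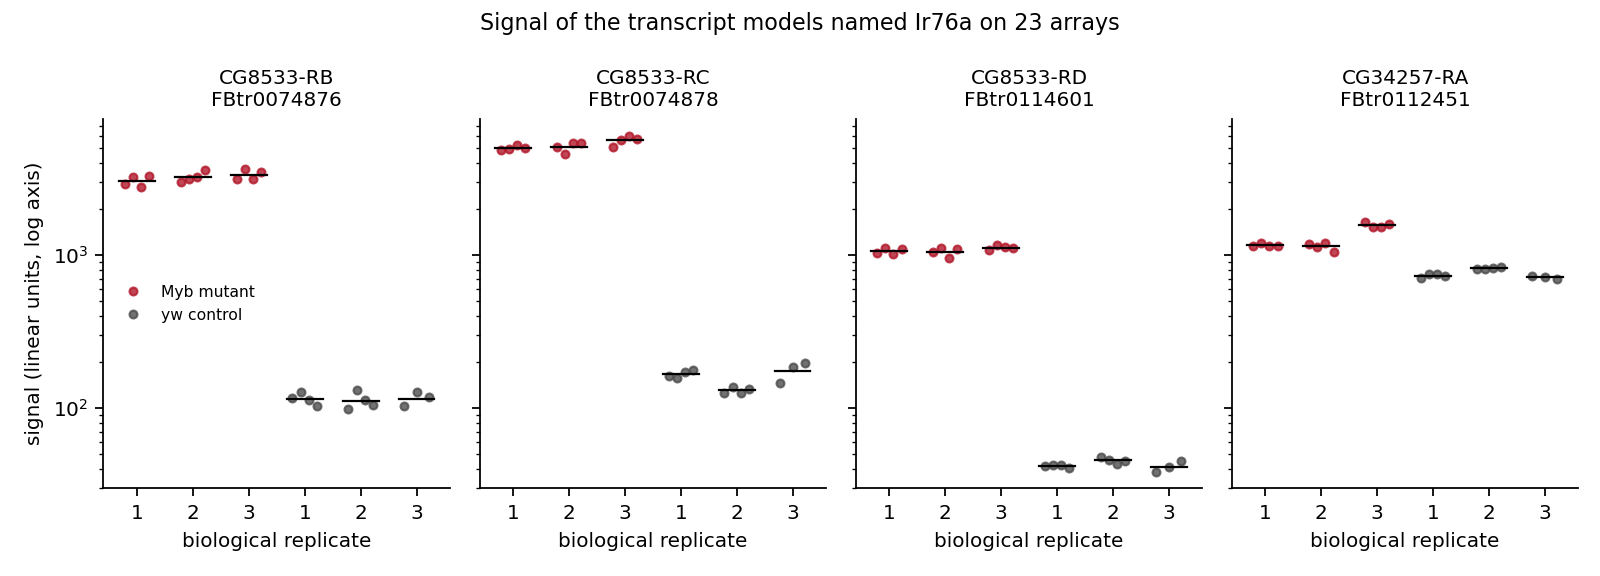
Signal of the 4 transcripts named Ir76a on each of the 23 arrays (points, linear units on a log axis), by biological replicate, with Myb mutant replicates left of yw control replicates; bars are the geometric means of a replicate's arrays. Control arrays of RB, RC and RD lie between 38.5 and 198.2 and mutant arrays between 951 and 6015, whereas all arrays of CG34257-RA lie between 698 and 1654.

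The models were set against all other transcripts to place their background and their level. In mutant discs RB stood above 64.0%, RC above 72.6% and RD above 50.2% of the tested transcripts, so their mutant signal was of middling brightness. In control discs RB stood above 31.3% and RC above 35.4%, but RD above only 1.60%. On this array 4414 transcripts (21.0%) had 1 value, 14.158, on all 23 arrays, and these were left out of the tests. The control signal of RD was 3.03 times that value, that of RB 8.04 times and that of RC 11.0 times. No detection flag was analysed here, so it is not known whether the control signals of the models exceeded the array background. A fold change over such a signal depends on that background. With every signal under 100 set to 100, the fold of RD was 10.8 (3.43 on the log2 scale) instead of 25.1, while RB and RC changed by 4.81 and 5.07 on the log2 scale.

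The models were selected on this contrast, so their calls are given only beside the share of all transcripts and nothing is read from them. All 3 models were called higher, and 0 lower, where 0.787% of all tested transcripts were called higher and 0.619% lower. In all 3 models every mutant replicate lay above every control replicate, which held for 14.6% of the tested transcripts. With the replicate number as a block all 3 remained called, where 0.258% of the transcripts were called higher and 0.108% lower.

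**Figure D2:**
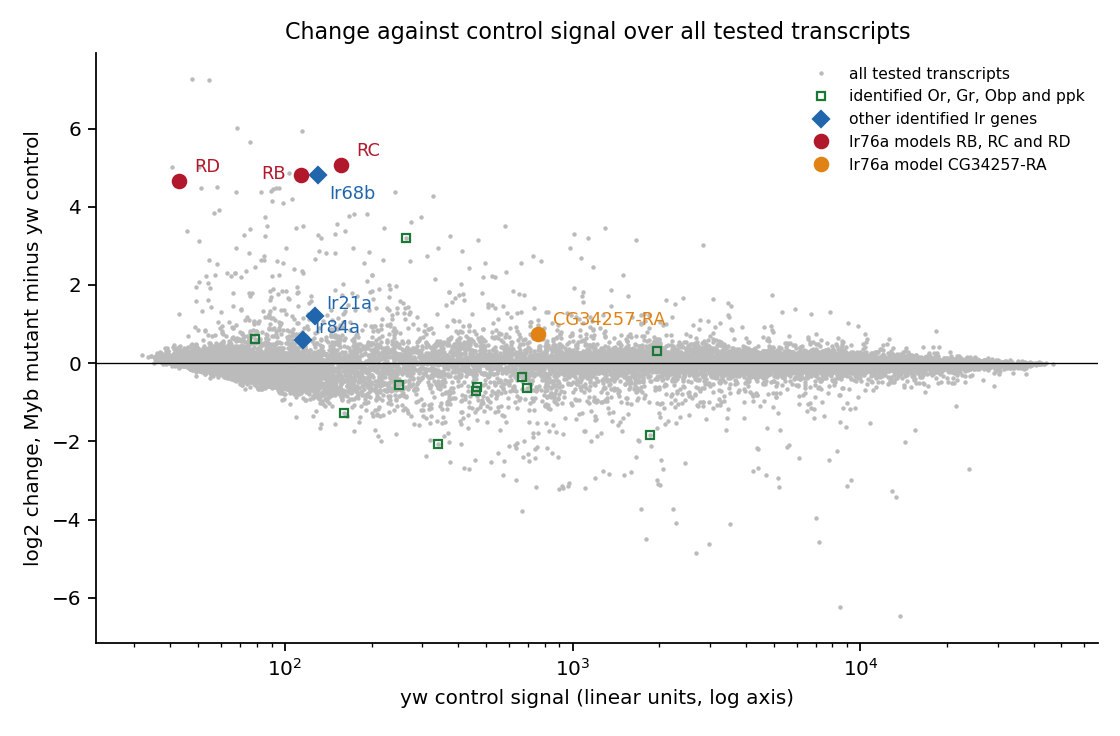
Log2 change (Myb mutant minus yw control) against control signal (linear units, log axis) for the 16637 tested transcripts (grey), with the Ir76a models and the identified chemosensory transcripts marked. RB, RC and RD lie at changes of 4.82, 5.07 and 4.65 over control signals of 113.8, 156.3 and 42.9, and CG34257-RA lies at 0.76 over 755.

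The plot of change against control signal places the CG8533 models at the upper left, among the transcripts that combine a dim control with a change of over 4 on the log2 scale. RD has the dimmest control of the models, and CG34257-RA lies apart from all of them.

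The spread of the models among replicates was then compared with that of transcripts of like level, within 0.5 on the log2 scale. In mutant discs the SD of RB (0.07) exceeded 25.8% of the SDs of 1843 such transcripts, that of RC (0.09) exceeded 39.6% of 2144, and that of RD (0.05) exceeded 8.17% of 1138. All were below the median of their neighbours in level (0.122 for RB, 0.106 for RC and 0.179 for RD). In control discs the SD of RB (0.03) exceeded only 1.02% of 2068, whereas that of RC (0.23) exceeded 38.5% of 1255 and that of RD (0.08) exceeded 31.5% of 2152.

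The SD among technical arrays and the SD among replicate means were set side by side for each model. In RB the SD among technical arrays of a replicate (0.133) was larger than the SD among replicate means of a genotype (0.0512), while in RC the SD among replicate means (0.173) was the larger one against 0.111 among arrays. In RD both were small, at 0.0714 among arrays and 0.0636 among replicates. By genotype, the replicate means of RC had an SD of 0.23 in the control and 0.09 in the mutant. A replicate mean averages several arrays and so scatters less than a single array, which puts these SDs on unlike scales. The differences between the models in these SDs were not tested. Over all tested transcripts the median SDs were 0.0818 among technical arrays and 0.125 among replicates. The technical scatter of RB was above that of 67.5% of transcripts, of RC above 59.7% and of RD above 43.8%.

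The ratio between models within a replicate was compared between genotypes. RC exceeded RB by 0.72, 0.66 and 0.75 on the log2 scale in mutant replicates 1, 2 and 3, against 0.54, 0.23 and 0.61 in control replicates 1, 2 and 3. The spacing was even among mutant replicates (0.71 ± 0.05), whereas control replicate 2 stood low among the controls (0.46 ± 0.20; SD, n = 3 each). Every mutant replicate had the wider spacing, by 0.25 on average (SE 0.12), and 0.14 without control replicate 2.

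RB exceeded RD by 1.52, 1.63 and 1.58 in mutant replicates, against 1.46, 1.29 and 1.48 in control replicates. The means were 1.58 ± 0.05 in the mutant and 1.41 ± 0.10 in the control (SD, n = 3 each), a difference of 0.17 (SE 0.07), and 0.11 without control replicate 2. All mutant replicates were again above all control replicates, but the nearest values, 1.52 and 1.48, lay close together.

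RC exceeded RD by 2.24, 2.28 and 2.32 in mutant replicates, against 1.996, 1.52 and 2.09 in control replicates, so this pair had the widest gap between genotypes. The means were 2.28 ± 0.04 in the mutant and 1.87 ± 0.30 in the control (SD, n = 3 each), a difference of 0.42 (SE 0.18), and 0.24 without control replicate 2. With signals under 100 set to 100, the difference for RB and RD became 1.39 and that for RC and RD 1.64. These differences between models belong to the contrast that selected them and were not tested.

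**Figure D3:**
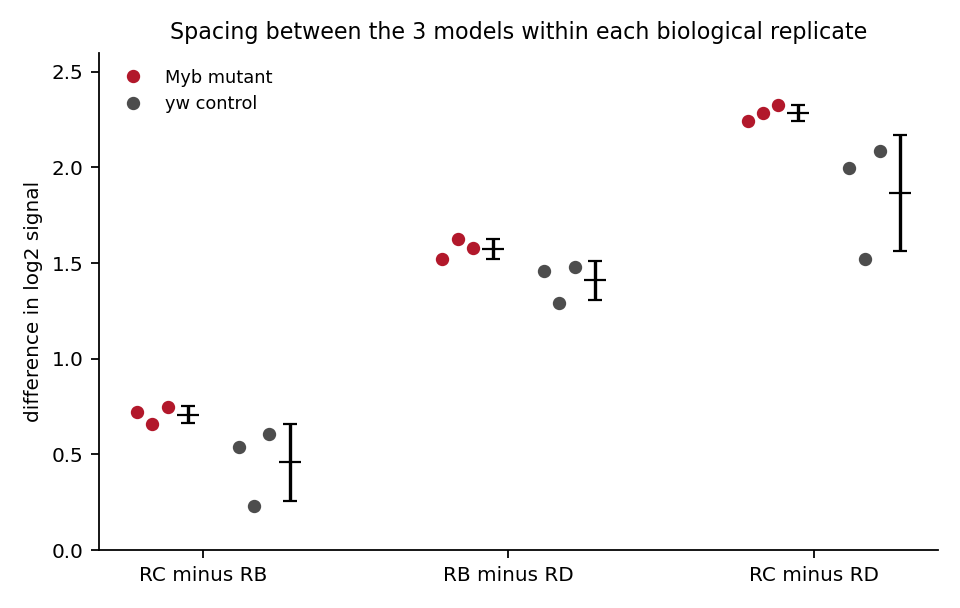
Difference in log2 signal between pairs of CG8533 models within each biological replicate (points), Myb mutant left of yw control in each pair, with the mean and SD of each genotype beside them (n = 3). Mutant replicates lie close together at 0.71, 1.58 and 2.28 on average, and control replicate 2 lies lowest in each pair, at 0.23, 1.29 and 1.52.

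As the plot of spacing shows, control replicate 2 was the lowest value of all 3 pairs, and it was the dimmest control in RC and the brightest in RD. The models thus did not move as one among the controls. Over the 23 arrays, deviations of single arrays from the mean of their biological replicate correlated at r = 0.29 between RB and RC, 0.35 between RB and RD and 0.22 between RC and RD. Deviations within a replicate share RNA and sum to 0, so the 23 points are not independent. The same deviations of a single model correlated with those of all other tested transcripts at a median r of 0.08 (RB), 0.08 (RC) and 0.05 (RD), with 5th to 95th percentiles of -0.37 to 0.51 for RB, -0.41 to 0.51 for RC and -0.46 to 0.54 for RD. The correlations among the models all lay inside these ranges. Over the 6 replicate means, deviations from the genotype means gave other values, r = 0.62 between RB and RC, 0.02 between RB and RD and -0.60 between RC and RD. These rest on 6 points, which sum to 0 within each genotype.

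CG34257-RA overlaps none of the CG8533 models in the study's annotation, although RefSeq Release 6 lists CG34257 and CG8533 as earlier tags of the 1 gene *Ir76a*. Its signals were 1157, 1140 and 1572 in mutant replicates 1, 2 and 3, against 734, 816 and 718 in control replicates 1, 2 and 3. Every mutant value exceeded every control value, mutant replicate 3 was the brightest as in the CG8533 models, and the control signal was well above theirs. The log2 change was 0.76 (SE 0.14, limma adjusted p = 0.0238), which is 1.69-fold and was not called. The change of RB exceeded it by 4.06 (SE 0.15), that of RC by 4.31 (SE 0.22) and that of RD by 3.89 (SE 0.12).

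The order of the 4 transcripts by signal thus differed between genotypes. On the log2 scale the signal of RD minus that of CG34257-RA was -0.25 in the mutant and -4.14 in the control. For RB the difference was 1.33 in the mutant and -2.73 in the control, and for RC it was 2.04 in the mutant and -2.27 in the control. The same array deviations of CG34257-RA correlated at r = -0.21 with RB, -0.32 with RC and -0.49 with RD, all within its 5th to 95th percentiles over all other tested transcripts (-0.52 to 0.41). Over the 6 replicate means the values were 0.50 with RB, -0.01 with RC and 0.80 with RD. Which probes the models share is not given in the sources used here. Overlapping models can share probes, and then their values are not independent measurements.

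Transcripts beside *Ir76a* on 3L were examined next. They could be named only where the part of the study's list at hand identifies them. That list was ranked by a test on these same arrays, so the identified ones are no random sample of the region. CG14102-RA, which lies between CG34257-RA and the CG8533 models, had signals of 1985, 2070 and 2171 in mutant replicates 1, 2 and 3, against 1330, 1387 and 1191 in control replicates 1, 2 and 3. All mutant values lay above the controls, and the change was 0.67 on the log2 scale (SE 0.08, limma adjusted p = 0.00429), which was not called. The span of *Ir76a* in RefSeq Release 6 overlaps that of *CG14102*. The cDNA was double-stranded and primed at random, so the labelled product carries both strands, and signal from RNA of one strand cannot be told from that of the other.

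3 further transcripts within 100 kb were identified, and 0 of them were called by limma, although all 3 had an unadjusted p under 0.05. *cyc*, which encodes the partner of Clock in the circadian oscillator, had a log2 change of 0.17 (SE 0.06, adjusted p = 0.157). *Rab8*, which encodes a small GTPase of membrane traffic, had one of -0.21 (SE 0.07, adjusted p = 0.163). *Usp32*, which encodes a ubiquitin protease, had one of 0.27 (SE 0.08, adjusted p = 0.105).

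**Figure D4:**
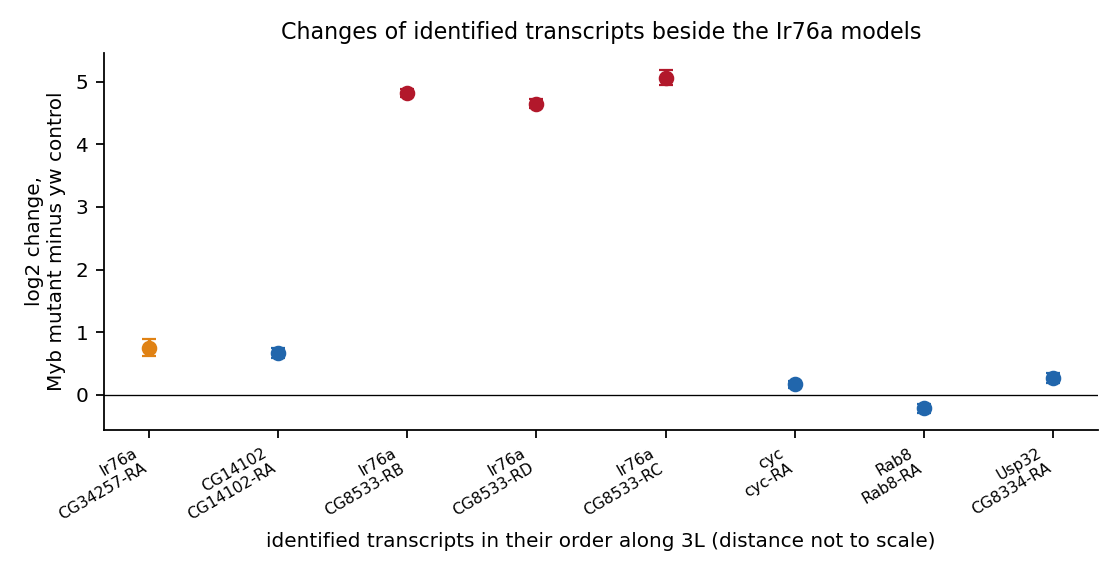
Log2 change (Myb mutant minus yw control, with SE of the limma fit) of the 8 identified transcripts within 100 kb on 3L, in chromosomal order and not to scale. The 3 CG8533 models lie at 4.65 to 5.07, CG34257-RA and CG14102 at 0.76 and 0.67, and cyc, Rab8 and Usp32 between -0.21 and 0.27.

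The plot of neighbouring transcripts shows that changes of over 4 were found in the CG8533 models only, among the 8 transcripts identified there.

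Other chemosensory genes were examined with the same naming limit. Of 66 RefSeq genes of the *Ir* family, 3 besides *Ir76a* had an identified transcript. All 3 had every mutant replicate above every control replicate, which held for 14.6% of the tested transcripts. Limma called 0 of them, where 0.787% of all tested transcripts were called higher, and their median change was 1.21. All 3 had an unadjusted limma p under 0.05. They came from a list ranked by p, so nothing about the family is read from these counts. *Ir68b* had signals of 3801, 3618 and 3569 in mutant replicates 1, 2 and 3, against 182.2, 58.2 and 208.2 in control replicates 1, 2 and 3. It resembled the CG8533 models in its dim control and bright mutant signal, with a change of 4.81, but its controls were uneven (SE 0.47, adjusted p = 0.00187). Without control replicate 2 its change was 4.23 (adjusted p = 3.36e-06), which passed the call.

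*Ir21a*, which encodes a receptor needed for sensing cooling, had signals of 347.8, 330.1 and 225.4 in mutant replicates, against 124.7, 126.9 and 130.9 in control replicates. Its change was 1.21 (SE 0.17, adjusted p = 0.00780). *Ir84a*, which encodes a receptor for aromatic food odours that promotes male courtship, had signals of 209.0, 171.1 and 150.0 in mutant replicates, against 112.4, 117.2 and 116.6 in control replicates. Its change was 0.60 (SE 0.12, adjusted p = 0.0356). Both had mutant values above all control values, and neither reached a signal of 500 in any replicate, so neither could be called.

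Odorant receptors (*Or*), gustatory receptors (*Gr*), odorant-binding proteins (*Obp*), pickpocket channels (*ppk*) and the *Ir* genes make up 268 RefSeq genes, *Ir76a* included. Of these, 14 besides *Ir76a* had an identified transcript. 0 of the 14 were called by limma, where 0.787% of all tested transcripts were called higher and 0.619% lower. The methods' t-test on the 6 replicate means also called 0 of the 14. All 14, which were listed by p, had an unadjusted limma p under 0.05. Of these, 6 were above and 8 below the control, and their median change was -0.46, against -0.01 over all tested transcripts. 7 of the 14 reached a signal of 500. At an adjusted p of 0.05 with that minimum, 2 were higher and 3 lower. The largest increase outside the *Ir* genes was that of *Obp99b*, an odorant-binding protein gene, at 2194, 1410 and 4566 in mutant replicates, against 265, 496 and 139 in control replicates (3.20, SE 0.58, adjusted p = 0.0223). The largest decrease was that of *Gr61a*, which encodes a sugar receptor, at 80.7, 82.6 and 79.4 in mutant replicates, against 293.8, 349.1 and 386.7 in control replicates (-2.08, SE 0.11, adjusted p = 0.000123). *Gr61a* and *ppk22*, a pickpocket channel gene named after its values were seen (-1.26, adjusted p = 0.000501), had an adjusted p under 0.001 but no replicate at a signal of 500, and for that reason were not called.

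The co-receptor genes *Ir25a*, *Ir8a*, *Ir76b* and *Orco* were among the transcripts with no identification here (0 of 4 identified), so their signals are not reported. Of 8 genes listed for sensory precursors and neurons, 2 were identified, and neither was called. *sens*, a proneural cofactor, was at 1531 in mutant and 2545 in control discs (adjusted p = 0.0191), and *ato*, a proneural factor, was at 410 in mutant and 600 in control discs (adjusted p = 0.0477). Their sum was 1719 to 2279 in mutant replicates and 3137 to 3164 in control replicates, lower in the mutant where the CG8533 models were higher. Their part in the *Ir76a* values was not tested.

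Finally, the transcripts with the profile most like the mean profile of the 3 models over the 6 biological replicates were named, among 245 transcripts with an SD of at least 1 on the log2 scale. 59 of the 245 had r over 0.99, since a wide step between genotypes gives a high r over so few replicates by itself. The 5 most alike of the identified ones were *Rpt6R* (r = 0.9999), which encodes a relative of a proteasome ATPase, *CG12698* (0.9997), *CG5281* (0.9997), *CG14864* (0.9996) and *CG1571* (0.9996). CG34257-RA had r = 0.923.

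*Rpt6R* was at 1619 in mutant and 50.3 in control discs, a change of 5.01. Its control level was near that of RD (42.9), and its mutant level was above that of RD (1076). *CG14864* was at 1893 in mutant and 89.5 in control discs (4.40). *CG12698* and *CG1571* had wider steps than the *Ir76a* models, at 7309 and 8294 in mutant and 47.7 and 54.6 in control discs (7.26 and 7.25). *CG5281* was at 4194 in mutant and 469.9 in control discs (3.16), which is a brighter control than that of the CG8533 models.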

How the data were processed

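Wing disc RNA was converted to double-stranded cDNA with random hexamers, labelled with Cy3 and hybridized to NimbleGen expression arrays. The authors deposited linear signal intensity per transcript, after background correction, quantile normalization and median polish (RMA, per the submitters' processing notes) in ArrayStar 12.0.0. The array's genome build, detection flags and slide or scan batches were not analysed here, and the number of arrays limits the precision.

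Intensities were log2 transformed, technical arrays were averaged within each biological replicate by sample title, and the 6 means were fitted with limma 3.58.1 (R 4.3.3; lmFit and eBayes, two-sided, Benjamini-Hochberg over 16637 transcripts). The fit was tested on simulated data. Transcripts with 1 value on all arrays were left out. Group values are geometric means, and the SE of a change is limma's. The methods named a t-test, which was run as an alternative on the same 6 means. The labels call the replicates biological and state no source that equal numbers share. Equal-numbered mutant and control replicates deviated together (r = 0.20, 0.18 and 0.28), so the replicate number was also fitted as a block.

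Names came from the study's transcript list, which is ranked by p and was at hand only in part. That part named 1999 of the tested transcripts and was used for identity only. RefSeq Release 6 gave family names and tags. Named were the 3 models, the other *Ir76a* transcript, all identified *Ir* genes, the largest increase and decrease of the *Or*, *Gr*, *Obp* and *ppk* lists, identified transcripts within 100 kb, the 5 most alike profiles and *Myb*. The models and lists were chosen with earlier results of these data known. Marker lists for muscle precursors, trachea and the haltere disc were also measured. Muscle precursor genes (2 of 3 identified) summed to 24303 to 29092 in mutant and 31998 to 35831 in control replicates. *Ubx*, for the haltere disc, summed over its transcripts to 2701 to 3226 in mutant and 4416 to 5295 in control replicates. In both lists 0 transcripts were called. For trachea 1 of 3 was identified, *btl*, at 228 in mutant and 568 in control discs. *btl* was called lower (limma adjusted p = 0.000904), where 0.619% of all tested transcripts were, but not with the replicate block (0.00895). Alternatives were each replicate left out, median centring, another quantile normalization, the first or the median technical array, a floor of 100, the block, all arrays with a random block, other thresholds and no signal minimum. No sequence of the gene or its probes was used here.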

Additional observations from a re-analysis of the deposited data

How the results depend on the processing

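The changes of the 3 models kept their direction with each replicate left out, median centring and another quantile normalization. They also did so with the first or the median technical array and the floor of 100. Those of CG34257-RA, CG14102 and the named *Ir* genes kept theirs in these settings and with the random block. The replicate block and the methods' t-test use the same replicate means as the main fit. Each leaves a change as it is, so neither is a check on its direction. Leaving out 1 replicate gave changes of 4.79 to 4.85 for RB, 4.94 to 5.15 for RC and 4.62 to 4.69 for RD, and the other settings apart from the floor gave 4.80 to 4.87, 5.05 to 5.11 and 4.62 to 4.66. With signals under 100 set to 100, RD changed by 3.43, and the differences in change were 1.39 for RB and RD and 1.64 for RC and RD. The differences between models spanned 0.14 to 0.32 (RC and RB), 0.11 to 0.20 (RB and RD) and 0.24 to 0.52 (RC and RD) with 1 replicate left out, the lowest always without control replicate 2.

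The count of called transcripts was 234, of which 131 were higher. With the replicate block it was 61 (43 higher), with all arrays and a random block 1184 (616) and at an adjusted p of 0.05 it was 1066 (570). By the t-test that the methods name, run here on the 6 replicate means, it was 17 (16). That count is not the study's own. Leaving out 1 replicate gave 70 to 317 (45 to 178 higher), and each replicate but control replicate 2 moved the count by over 1.5 times: omission of *Myb* mutant replicate 1, 2 or 3 left 70, 71 or 121 calls, and omission of yw control replicate 1 or 3 left 106 or 100. The count of chemosensory transcripts called besides the models was 0, against 2 without control replicate 2 (0 to 2 with 1 replicate left out), 1 with the first technical array, 1 with the floor of 100, 5 with the random block, 5 at an adjusted p of 0.05 and 2 with no signal minimum. CG34257-RA changed by 0.75 with the random block (adjusted p = 3.39e-07) and by 0.76 at a threshold of 0.05, and both passed the call. The same 2 settings called CG14102 (adjusted p = 2.26e-08 and 0.00429) and *Ir68b* (1.2e-13 and 0.00187), and the floor of 100 also called *Ir68b* (0.000628). With the random block the arrays are the units, although only 3 biological replicates a genotype lie behind them. Where replicates scatter widely, as in the *Ir68b* controls (SD 1.01 on the log2 scale), the p-values of that setting can be too small. Its calls, the 1184 and the 5 chemosensory ones included, are therefore not read as stronger evidence. With the replicate block the limma adjusted p of CG34257-RA was 0.0630. At the threshold of 0.05 and with no signal minimum the fit is the main one, and only the limit for a call differs. The cause of the other shifts was not tested. Precision rests on 3 replicates a genotype, and without detection flags the dim control signals, RD above all, cannot be told from background.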
